A study of Mus musculus with 696 samples.

Results

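The genes described here are 4 genes of epidermal shedding, chosen by name among the 15652 genes of a single-cell RNA table of mouse tail skin: the kallikrein proteases Klk7, Klk8 and Klk10, and corneodesmosin (Cdsn), the adhesive protein that such proteases cut. Their level on each plate, the share of cells that carried them and their joint presence in single cells are given over 4 time points. The cells were tdTomato+ keratinocytes of female mice carrying the alleles Lrig1-EGFP-ires-CreERT2 and Rosa26-fl/STOP/fl-tdTomato and of a CBA C57BL/6 mixed strain, sorted from tail skin that held both the wound bed and distal hair follicles, so the label marks descendants of cells that had the Lrig1 promoter active when hydroxytamoxifen was put on the tail once. All groups carry these alleles and this treatment. Labelling was done at 6 to 8 weeks of age, and the time course began 1 week later, at 7 to 9 weeks.

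The groups were 0w (unwounded, 179 cells), 1w pw1 (1 week after a first wound, 168 cells), 8w pw1 (8 weeks after it, 172 cells) and 1w pw2 (1 week after a second wound made at 8 weeks, labelled as week 9, 177 cells). Each group was sorted into 2 plates, which are the replicates, with 79 to 91 cells and 12293182 to 19760820 estimated counts a plate. Below, "healing" stands for the 4 plates of 1w pw1 and 1w pw2, and "resting" for the 4 plates of 0w and 8w pw1. The study's methods name independent experiments on several biological replicates, but neither they nor the labels tie a plate to an experiment or an animal. P-values therefore measure the spread between plates only, which may be technical. The sample titles carry a Rep letter beside the replicate number, shared by both plates of a time point and different between time points. What this letter marks is not stated, and it cannot be told apart from the time point.

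Corneocytes at the skin surface are held together by corneodesmosomes, desmosomes reinforced on the outside by corneodesmosin. Tissue kallikreins are secreted serine proteases made by keratinocytes late in differentiation, and they loosen these junctions so that surface cells can be shed. Klk7 is the chymotrypsin-like enzyme that cleaves corneodesmosin, Klk8 (neuropsin) is trypsin-like, and Klk10 is a family member with less well defined substrates. Inhibitors such as Spink5 (LEKTI) hold the proteases in check, and in the hair follicle the family is known from the upper follicle and its duct.

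The 3 proteases lie close together on the plus strand of mouse chromosome 7 in GRCm38, with Klk9 between Klk10 and Klk8, inside a run of 10 kallikrein genes of the table that spans 161 kb. Klk10 (ENSMUSG00000030693) lies at chr7:43781035-43785410, Klk8 (ENSMUSG00000064023) at chr7:43797577-43803826 and Klk7 (ENSMUSG00000030713) at chr7:43811294-43816359. Cdsn (ENSMUSG00000039518) lies apart, on the plus strand at chr17:35552128-35557180. All 4 are annotated as protein coding. Of the 1540 exonic bases of Klk8, 382 (24.8%) also lie in exons of 2310002F09Rik, a transcript of the opposite strand. The library method does not mark strand, so reads from those bases cannot be assigned to either gene by strand, and 2310002F09Rik was not analysed here.

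The 250 bases before each RefSeq start site (build GRCm38.p6, plus strand) are shown because the 3 proteases sit in 1 cluster and were followed together over the time points. Capitals mark matches, on either strand, to the GC box (GGGCGG) and to the E-box (CANNTG). The windows are chr7:43811044-43811293 for Klk7, chr7:43797327-43797576 for Klk8, chr7:43780804-43781053 for Klk10 and chr17:35551878-35552127 for Cdsn.
Klk7: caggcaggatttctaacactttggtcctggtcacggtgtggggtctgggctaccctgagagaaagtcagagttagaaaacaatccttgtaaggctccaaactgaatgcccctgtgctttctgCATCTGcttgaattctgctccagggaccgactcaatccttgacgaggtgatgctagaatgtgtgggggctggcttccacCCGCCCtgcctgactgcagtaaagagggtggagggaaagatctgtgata
Klk8: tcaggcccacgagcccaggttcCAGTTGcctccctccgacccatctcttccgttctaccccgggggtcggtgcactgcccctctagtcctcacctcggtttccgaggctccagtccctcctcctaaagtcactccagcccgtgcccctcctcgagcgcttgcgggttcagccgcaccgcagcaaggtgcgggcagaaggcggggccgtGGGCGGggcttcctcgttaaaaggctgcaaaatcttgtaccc
Klk10: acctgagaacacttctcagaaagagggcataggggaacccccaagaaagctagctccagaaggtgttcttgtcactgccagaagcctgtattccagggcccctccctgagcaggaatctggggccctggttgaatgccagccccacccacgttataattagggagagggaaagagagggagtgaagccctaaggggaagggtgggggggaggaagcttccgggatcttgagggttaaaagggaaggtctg
Cdsn: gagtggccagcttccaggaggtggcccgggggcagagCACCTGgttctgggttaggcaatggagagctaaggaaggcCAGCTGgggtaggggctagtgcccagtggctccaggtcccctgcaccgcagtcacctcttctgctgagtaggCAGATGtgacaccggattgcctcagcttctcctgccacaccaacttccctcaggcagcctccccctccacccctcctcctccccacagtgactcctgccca

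Klk7 and Klk8 each held 1 GC box, with its first base 49 and 42 bases before the start, a motif found in 32.7% of all 32851 promoter windows of this length. E-boxes were present once in Klk7, once in Klk8 and 3 times in Cdsn, and 66.2% of all windows hold at least 1. The Klk10 window held neither. Of the 4 windows, 0 held the AP-1 letters TGANTCA, which 6.75% of all windows hold. The same was seen for the TATA box letters TATAAA, held by 12.4% of windows, and for the GATA letters AGATAA, held by 9.99%. No marked matches overlap each other.

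Klk8 was the member that separated healing from resting skin most clearly. Its plate level in CPM (counts relative to the plate total, scaled by TMM) was 10.3 and 1.24 at 0w, 78.2 and 51.3 at 1w pw1, 4.18 and 4.24 at 8w pw1, and 67.4 and 46.6 at 1w pw2. All 4 healing plates lay above all 4 resting plates, with a gap between 10.3 and 46.6 CPM. Klk8 rose in healing against resting skin by a log2 fold change of 3.62 (SE 0.62, edgeR quasi-likelihood test, adjusted p = 0.0199). It was the only member of 4 called in this comparison, where 1.8% of the 13853 genes tested were called at an adjusted p below 0.05 and a fold above 2, 1.03% higher and 0.765% lower. The call was lost when any 1 of 4 plates was left out: the adjusted p was 0.0778 and 0.0501 without replicate 1 or 2 of 1w pw1, and 0.0682 and 0.0832 without replicate 1 or 2 of 8w pw1, with log2 fold changes between 3.46 and 3.78. Over all alternatives tried, its adjusted p ran from 2.08e-08 (DESeq2) to 0.0832.

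Klk7 had the same direction with a smaller distance. Its levels were 141 and 82.1 CPM at 0w, 529 and 304 at 1w pw1, 224 and 141 at 8w pw1, and 258 and 535 at 1w pw2. The 4 healing plates again lay above the 4 resting plates, but only narrowly, at 258 against 224 CPM. On 1w pw1 replicate 1, 1 cell gave 64.9% of the Klk7 counts. Without the highest Klk7 cell of each plate, the unscaled levels were 152 to 398 CPM on healing and 16.7 to 161 CPM on resting plates and overlapped, whereas the same step left Klk8 at 30.2 to 66.3 against 0.704 to 6.84 CPM. The log2 fold change was 1.51 (SE 0.39, edgeR adjusted p = 0.0979), which did not pass. With the replicate number as a block, Klk7 passed as well (1.55, edgeR adjusted p = 0.0471), in a fit that called 459 genes in place of 249. Klk7 and Klk8 were the 2 of 4 members whose healing plates all exceeded the resting plates, an order seen in 4.28% of the genes tested, while 3.72% had the reverse order.

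Klk10 and Cdsn overlapped between the groups. Klk10 was at 105 and 6.15 CPM at 0w, 997 and 131 at 1w pw1, 183 and 21.8 at 8w pw1, and 53.8 and 121 at 1w pw2. One plate, 1w pw1 replicate 1, stood far above the rest, and 1 cell gave 75.6% of its Klk10 counts; without that cell the unscaled level of that plate was 199.9 CPM. Cdsn was at 28.04 and 0.917 CPM at 0w, 60.005 and 69.3 at 1w pw1, 154 and 9.46 at 8w pw1, and 85.5 and 143 at 1w pw2. The highest Cdsn plate was thus a resting one, and the paired 8w pw1 plate was among the lowest. Healing against resting log2 fold changes were 1.56 for Klk10 (SE 0.93, edgeR adjusted p = 0.493) and 1.32 for Cdsn (SE 0.93, edgeR adjusted p = 0.573). With the replicate block they were 2.44 and 2.49 (edgeR adjusted p = 0.115 and 0.265). These were the highest values over the alternatives that kept every plate, and the lowest were 0.337 for Klk10 and 0.246 for Cdsn.

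**Figure D1:**
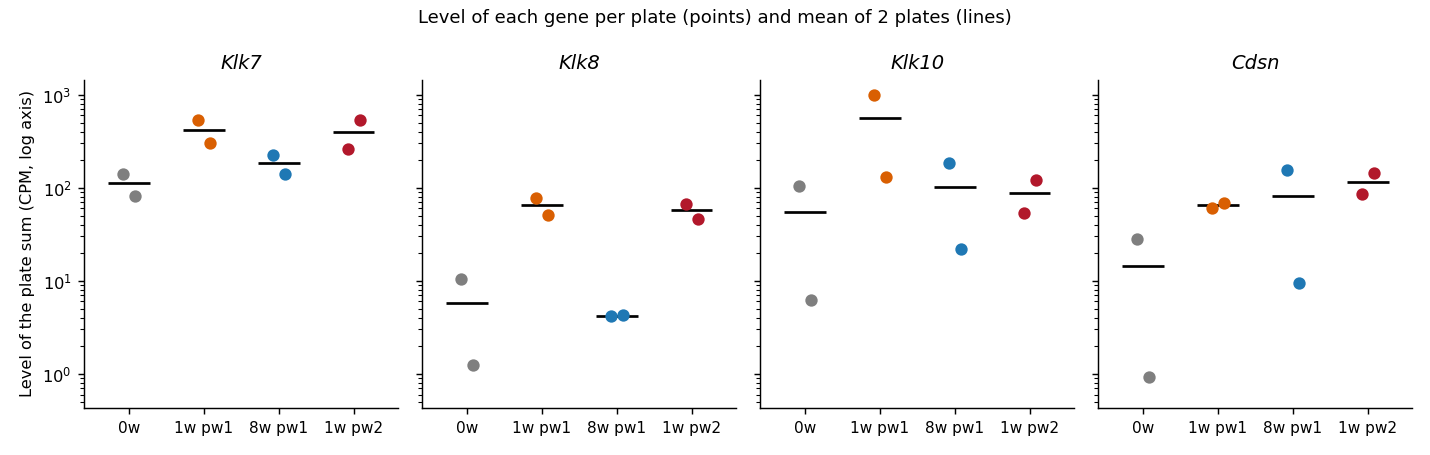
Level of Klk7, Klk8, Klk10 and Cdsn in CPM on a log axis, for the 2 plates (points) of each time point, with their mean (line). Klk8 and Klk7 have all 4 healing plates (1w pw1, 1w pw2) above the 4 resting plates, while the plates of Klk10 and Cdsn overlap.

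By edgeR without the replicate block, single steps of the time course gave no call for any member, while DESeq2 called Klk7, Klk8 and Klk10 at 1w pw1 against 0w, and Klk8 at 1w pw2 against 0w and against 8w pw1. In 1w pw1 against 0w, where 0.527% of genes were called (0.404% higher and 0.123% lower), the log2 fold changes were 3.48 for Klk8 (SE 0.87, edgeR adjusted p = 0.1298), 3.35 for Klk10 (SE 1.40, edgeR adjusted p = 0.388), 2.16 for Cdsn (SE 1.35, edgeR adjusted p = 0.611) and 1.90 for Klk7 (SE 0.56, edgeR adjusted p = 0.194). These values depended on single plates: the lowest and highest on leaving out 1 plate were 2.63 and 5.66 for Klk8, 1.23 and 6.48 for Klk10, 1.19 and 6.09 for Cdsn, and 1.43 and 2.31 for Klk7, each highest without 0w replicate 1. With the replicate block, which called 236 genes in place of 73, Klk8 passed there (3.78, edgeR adjusted p = 0.0464). At an unadjusted p under 0.05, 3 of the 4 members and 1587 of the 13853 genes would pass. In 1w pw2 against 8w pw1, where 0.00722% of genes were called, Klk8 stood at 3.76 (SE 0.88, edgeR adjusted p = 0.309), Klk7 at 1.12 (SE 0.55), Cdsn at 0.48 (SE 1.29) and Klk10 at -0.23 (SE 1.28). In 1w pw2 against 0w, with 0.267% of genes called (0.238% higher and 0.0289% lower) and the same 0w plates as control, the values were 3.30 for Klk8, 2.98 for Cdsn, 1.83 for Klk7 and 0.66 for Klk10. Without 0w replicate 1 or 0w replicate 2 they were 5.48 or 2.45 for Klk8, 6.91 or 2.01 for Cdsn, and 3.78 or -0.28 for Klk10.

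The healed skin of 8w pw1 was compared with unwounded skin to see whether the genes had returned to their level. The log2 fold changes were -0.46 for Klk8 (SE 0.81), 0.71 for Klk7 (SE 0.54), 0.89 for Klk10 (SE 1.29) and 2.50 for Cdsn (SE 1.36), with edgeR adjusted p-values between 0.798 and 0.953. Leaving out 1 plate turned directions, with ranges of -1.33 to 1.69 for Klk8, -1.33 to 3.97 for Klk10 and -0.59 to 6.38 for Cdsn. With every cell scaled equally Klk7 turned to -0.032. Of all genes tested 0% were called in this contrast (896 had an unadjusted p under 0.05), so it could not place a member apart from the rest. With DESeq2 161 genes were called there, none of them a member.

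The second wound was also set against the first. For 1w pw2 against 1w pw1 the log2 fold changes were -0.07 for Klk7 (SE 0.54), -0.19 for Klk8 (SE 0.79), 0.82 for Cdsn (SE 1.30) and -2.69 for Klk10 (SE 1.36), and 0% of genes were called by edgeR (832 had an unadjusted p under 0.05, and DESeq2 called 42). On leaving out 1 plate the Klk10 value ran from -3.52 to -0.597 and that of Cdsn from 0.43 to 1.12. The test of the difference between the healings, each against the resting skin before it, gave -3.58 for Klk10 (SE 1.86, edgeR adjusted p = 0.964) and values from -1.68 to 0.27 for the other members, again with 0% called by edgeR (740 at an unadjusted p under 0.05, and 81 by DESeq2). The Klk10 value was -1.43 without 1w pw1 replicate 1, where 1 cell gave 75.6% of the Klk10 counts, and -1.37 without 8w pw1 replicate 1, where 1 cell gave 61.3%. Over all plates left out 1 at a time it ran from -6.67 to -1.37. In the test of any difference over the 4 time points, which called 0.31% of genes, the edgeR adjusted p was lowest for Klk8, at 0.119, and 0.0450 with the replicate block, which called 151 genes in place of 43.

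Levels of different genes were compared only per kilobase of exon. Klk7 averaged 58.9 ± 22.0 CPM per kb at 0w (SD, n = 2 plates) and Klk8 3.76 ± 4.17, with 40.3 ± 50.7 for Klk10 and 5.41 ± 7.16 for Cdsn. At 8w pw1 the same order by mean held, with 96.5 ± 31.1 for Klk7, 74.5 ± 83.0 for Klk10, 30.6 ± 38.2 for Cdsn and 2.73 ± 0.03 for Klk8. At both 0w and 8w pw1, neighbours in this order differed by less than the larger of their SDs. At 1w pw2 it held again for Klk7 (209 ± 103), Klk10 (63.6 ± 34.6), Cdsn (42.7 ± 15.2) and Klk8 (37.0 ± 9.57). At 1w pw1 Klk10 came first (411 ± 446), before Klk7 (220 ± 83.6), Klk8 (42.1 ± 12.4) and Cdsn (24.1 ± 2.44), but Klk10 and Klk7 differed there by less than the spread of Klk10. The gap between Klk7 and the other members at 1w pw2 exceeded their SDs, while Cdsn and Klk8 differed by less than their spread.

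A plate level mixes how many cells carry a transcript with how much each holds, so the share of cells with at least 1 estimated count was taken on its own. Klk8 was found in 6.82% and 3.30% of cells at 0w, 52.8% and 46.8% at 1w pw1, 8.24% and 6.90% at 8w pw1, and 40.7% and 46.2% at 1w pw2. The exact 95% binomial intervals, which cover counting error only, reached at most 16.2% on resting plates and began at 30.2% or more on healing plates. The mean was 46.6% ± 4.95 in healing (SD, n = 4 plates) and 6.31% ± 2.11 in resting skin, a difference of 40.3 points that ranked 22nd of 15652 genes, where the median gene differed by 1.55 points.

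Klk7 was found in 9.09% and 13.2% of cells at 0w, 36.0% and 39.2% at 1w pw1, 17.6% and 5.75% at 8w pw1, and 45.3% and 29.7% at 1w pw2, a mean of 37.6% ± 6.54 against 11.4% ± 5.15 (SD, n = 4 plates each). Klk10 was found in 9.09% and 4.40% at 0w, 24.7% and 26.6% at 1w pw1, 10.6% and 4.60% at 8w pw1, and 23.3% and 15.4% at 1w pw2, a mean of 22.5% ± 4.93 against 7.17% ± 3.15. For both, as for Klk8, every healing plate lay above every resting plate. This held for 3 of 4 members and for 11.1% of all genes, or 14.5% of genes found in at least 10% of cells.

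Cdsn plates overlapped. It was found in 9.09% and 4.40% of cells at 0w, 12.4% and 13.9% at 1w pw1, 11.8% and 8.05% at 8w pw1, and 19.8% and 8.79% at 1w pw2. The highest healing plate (19.8%) lay above and the lowest (8.79%) within the resting range, and the means of 13.7% ± 4.57 and 8.32% ± 3.05 (SD, n = 4 plates each) differed by 5.39 points, rank 4600 of 15652 genes. Among plates of 1 replicate number healing lay above resting, with 12.4% and 19.8% against 9.09% and 11.8% for replicate 1, and 13.9% and 8.79% against 4.40% and 8.05% for replicate 2. With at least 10 counts asked of a positive cell, the differences were smaller, at 25.4 points for Klk8, 18.0 for Klk7, 8.90 for Klk10 and 2.07 for Cdsn.

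In an exact two-sided permutation test of healing against resting plates (70 arrangements), Klk7, Klk8 and Klk10 each gave p = 0.0286, the smallest that 4 plates against 4 allow, and Cdsn gave p = 0.0857. That smallest p was reached by 14.2% of all genes, and adjusted over all genes it became 0.202, so none of the 3 proteases passed. Over the 4 time points (2520 arrangements), the exact permutation p was 0.00952 for Klk8, the smallest possible and shared with 2.86% of genes, 0.0286 for Klk10, 0.0857 for Klk7 and 0.467 for Cdsn. None of the 15652 genes passed after adjustment in this test. Plates of a single time point against another (2 against 2) cannot go below p = 0.333 and were not tested.

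**Figure D2:**
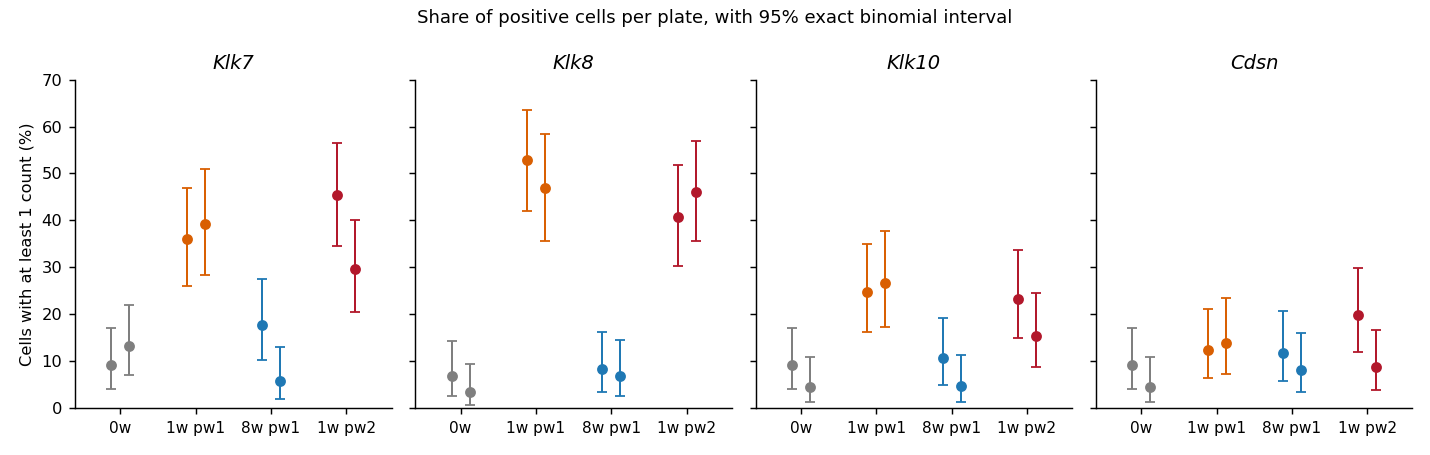
Percentage of cells with at least 1 count of each gene, for the 2 plates of each time point; bars are 95% exact binomial intervals. Klk8 lies between 40.7% and 52.8% on the healing plates and at 8.24% or less on the resting plates; Cdsn plates overlap.

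Depth differed between plates, with medians of 122416 to 256588 counts per cell in healing and 64980 to 131604 in resting skin. When each cell was thinned to 50000 counts and the 136 shallower cells were left out, the healing minus resting differences were 36.1 points for Klk8, 22.8 for Klk7, 14.6 for Klk10 and 1.999 for Cdsn. Without thinning, the same deeper cells gave 42.9, 26.5, 17.3 and 4.93 points. As a reference for background, Klk10 was found in 0 of the 18 cells with at least 10 counts of Cd34, a bulge stem cell gene (exact interval to 18.5%), Klk7 and Cdsn in 1 each (5.56%) and Klk8 in 3 (16.7%), at a median depth of 261062 counts against 129454 in the other cells. The Klk8 shares of the resting plates, at most 8.24%, were below that reference, whose exact 95% interval is 3.58% to 41.4%. So wide an interval cannot decide whether these cells express Klk8. At least 10 Klk8 counts were held by 4 and 1 cells of the 0w plates and by 1 cell on each 8w pw1 plate. The resting shares of the other members also lay within the intervals of their references, which reached 27.3% for Klk7 and Cdsn and 18.5% for Klk10, and the share of Cdsn on 0w replicate 2, 4.40%, was below the 5.56% itself. Healing shares of Cdsn (8.79% to 19.8%) and the lowest of Klk10 (15.4%) and Klk8 (40.7%) also lay within those intervals. With 18 reference cells, such shares of single genes were thus not set apart from background. Another reference was the 278 cells with fewer than 10 counts of Krt10. It held Klk7 in 4.68% (interval to 7.86%), Klk10 in 5.76% (to 9.18%), Cdsn in 3.60% (to 6.52%) and Klk8 in 6.12% (to 9.61%). The highest resting shares of Klk7 (17.6%), Klk10 (10.6%) and Cdsn (11.8%) lay above these intervals, the lowest within.

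Markers of several cell states also differed between the plates. The summed level of 8 suprabasal markers was 3846 to 7733 CPM on resting and 21519 to 37850 CPM on healing plates, without overlap, and that of 6 wound-activated markers was 55.2 to 795 against 2755 to 22605 CPM. The sum of 8 sebaceous gland markers separated the other way, with 1133 to 7935 CPM on resting and 504 to 1011 CPM on healing plates. That of 7 bulge markers overlapped, at 1075 to 2501 against 335 to 1221 CPM. To set this beside the shares, the count was repeated among the 418 cells with at least 10 counts of Krt10, the keratin of suprabasal cells, a choice made after the values were seen. There Klk8 was found in 8.33% to 18.9% of cells on resting plates and 48.4% to 59.2% on healing plates, a difference of 40.2 points beside 40.3 in all cells. For Klk7 the difference was 18.2 points (exact permutation p = 0.0571) and for Klk10 8.94 points (exact permutation p = 0.0857), and plates overlapped for both. For Cdsn it was -1.57 points (exact permutation p = 0.6). Within these cells Cdsn was found in 11.1% to 20% on resting and 11.4% to 22.6% on healing plates. The cut did not hold the level of Krt10 or of other suprabasal markers equal, and the part of cell composition in the shares was not tested.

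The amount per positive cell was taken next. In Klk7-positive cells the median was 669 CPM on the 0w plates and 684 CPM on those of 8w pw1, against 449 and 286 CPM 1 week after the first and the second wound, but single plates overlapped: 0w plates had medians of 2646 and 430 CPM, 1w pw1 plates 552 and 383, 8w pw1 plates 544 and 969, and 1w pw2 plates 154 and 490. In Klk8-positive cells the medians, in the order of the time points, were 57.0, 56.5, 27.7 and 100.2 CPM, and in Klk10-positive cells 109, 134, 343 and 64.6 CPM. The Klk8 medians at 0w and 8w pw1 come from 9 and 13 cells, at shares that the references above did not set apart from background. Cdsn-positive cells had medians of 15.8, 22.1, 166 and 114 CPM, with 663 and 8.01 CPM on the 0w plates alone. These medians rest on 9 to 84 positive cells each and were not tested.

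Counts were concentrated in few cells. The single highest cell gave 12.05% to 78.5% of the Klk8 counts of a plate, 13.5% to 88.1% for Klk7, 31.8% to 88.0% for Klk10 and 23.8% to 82.4% for Cdsn. On 8w pw1 replicate 2, 1 cell gave 88.1% of the Klk7 counts and 1 cell 88.0% of the Klk10 counts. The Klk8 counts of the healing plates were the most evenly spread, with at most 34.7% from 1 cell.

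The substrate was then set beside the proteases within single cells. The share of cells with Cdsn was highest among those that carried Klk7 and Klk10 and lowest among those that carried Klk8 without Klk7. Over all plates, Cdsn was present in 22 of 32 cells with Klk7 and Klk10 only (68.8%, exact 95% interval 49.99% to 83.9%) and in 12 of 22 cells with all 3 proteases (54.5%, 32.2% to 75.6%). It was present in 7 of 24 cells with Klk10 alone (29.2%), 9 of 50 with Klk7 alone (18.0%) and 11 of 65 with Klk7 and Klk8 (16.9%). In cells with Klk8 alone it was present in 1 of 72 (1.39%, 0.0352% to 7.50%), and in cells with Klk8 and Klk10 in 0 of 24, whose exact interval reaches 14.2%. Of the 407 cells with none of the proteases, 14 had Cdsn (3.44%, 1.89% to 5.70%). Cells of a plate share their source, so these intervals cover counting error only.

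**Figure D3:**
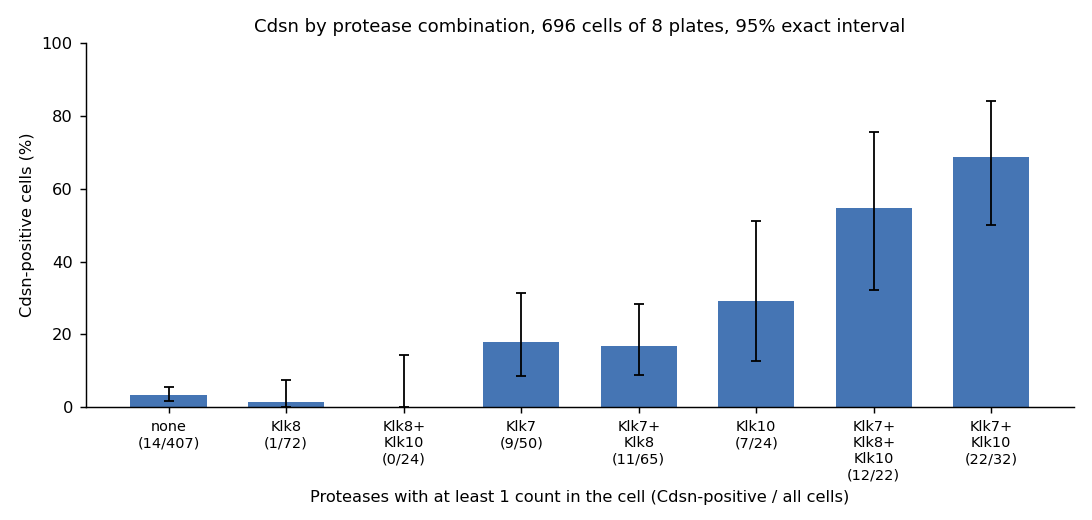
Percentage of Cdsn-positive cells (vertical axis) among cells sorted by which of Klk7, Klk8 and Klk10 had at least 1 count (horizontal axis, with cell numbers); bars carry 95% exact binomial intervals over 696 cells. The highest share is 68.8% in Klk7+Klk10 cells and the lowest are 0 of 24 and 1 of 72 in Klk8 cells without Klk7.

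The pattern was followed plate by plate. The share of Cdsn-positive cells was higher in Klk7-positive than in Klk7-negative cells on 8 of 8 plates, by 36.4 points on average (SD 29.8, range 4.54 to 97.6). For Klk10 it was higher on 8 of 8 plates, by 40.1 points (SD 27.1, range 0.493 to 73.8). For Klk8 it was higher on 4 of 8 plates, by 1.60 points (SD 12.6, range -12.7 to 27.2). That Klk8 average was -2.06 without 8w pw1 replicate 2, 0.366 to 3.63 without any other single plate. With at least 10 counts asked of a positive cell it was 11.9, a value set by 1 Klk8 cell of 8w pw1 replicate 2 (98.8 points), against -9.52 to 5.75 on the other plates. Under that rule Klk7 gave 30.1 and Klk10 40.8 points, each above 0 on 7 of 8 plates. Among the cells with at least 10 counts of Krt10 the averages were 35.7 points for Klk7 (7 of 8 plates above 0), 38.7 for Klk10 (8 of 8) and -4.60 for Klk8 (3 of 8).

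The counts were also taken by state of the skin. Among healing cells, 10 of 17 with Klk7 and Klk10 only had Cdsn (58.8%, exact 95% interval 32.9% to 81.6%), against 1 of 60 with Klk8 alone (1.67%, 0.0422% to 8.94%). Among resting cells the first share was 12 of 15 (80.0%, 51.9% to 95.7%), against 9 of 293 with none of the proteases (3.07%, 1.41% to 5.75%). Only 12 resting cells carried Klk8 alone, and 0 of them had Cdsn (exact interval to 26.5%). The references did not set the resting Klk8 shares apart from background. The difference between the states was not tested. Seen from the substrate, 54 of the 76 Cdsn-positive cells had Klk7 (71.1%), 41 had Klk10 (53.9%) and 24 had Klk8 (31.6%), where the Cdsn-negative cells had Klk7 in 18.5%, Klk10 in 9.84% and Klk8 in 25.6%. Within plates, the Spearman correlation of log2(CPM + 1) over cells had a median of 0.45 for Klk10 with Cdsn (0.013 to 0.75). It was 0.43 for Klk7 with Cdsn (0.064 to 0.85) and 0.00 for Klk8 with Cdsn (-0.19 to 0.28). Cells of a plate share library and depth, and no test was made.

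The proteases also overlapped with each other to unequal degrees. Klk8 was present in 87 of 169 Klk7-positive cells (51.5%) and in 96 of 527 Klk7-negative cells (18.2%). These shares pool time points at which both genes differed in frequency. Within time points Klk8 was in 10% of Klk7-positive and 4.40% of Klk7-negative cells at 0w, 57.1% and 45.7% at 1w pw1, 30.0% and 4.61% at 8w pw1, and 65.2% and 30.6% at 1w pw2. Within plates the Spearman correlation of Klk7 with Klk8 had a median of 0.30 (-0.085 to 0.43). Klk10 was present in 54 of the 169 (32.0%) and 48 of the 527 (9.11%), with a median within-plate correlation of 0.37 (-0.11 to 0.74). At 1w pw1 the link between Klk7 and Klk10 was not seen: Klk10 was present in 14 of 63 Klk7-positive (22.2%) and 29 of 105 Klk7-negative cells (27.6%), whereas at 0w it was in 9 of 20 (45.0%) and 3 of 159 (1.89%). None of the 3 proteases was detected in 84.4% of 0w cells and 82.6% of 8w pw1 cells, against 26.2% and 39.5% of cells 1 week after the first and the second wound. Positive cells were deeper than negative ones for each protease, for example a median of 172101 against 119227 counts for Klk8 and 168955 against 122304 for Klk7; the part of depth in the overlaps was not tested beyond thinning, under which Klk7 and Klk10 kept averages of 31.0 and 38.4 points for Cdsn (7 of 8 plates above 0 each).

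Epidermal markers were compared between cells positive and negative for each member, and differences between the members were not tested. In Klk7-positive cells, compared with negative cells of the same plate, the upper follicle and duct genes were far higher on the log2(CPM + 1) scale: Cst6 (cystatin M/E) by 8.09 (SD 3.19), Defb6 (a beta-defensin) by 7.84 (SD 2.37) and Krt79, a keratin of the duct and infundibulum, by 6.996 (SD 1.76), each on 8 of 8 plates. All 6 genes of the upper follicle and duct list were higher on 8 of 8 plates, with a list average of 5.59 (SD 1.70). The suprabasal list was higher too, by 2.76 (SD 1.22) on 8 of 8 plates, with 5 of its 8 genes higher on every plate, among them Skint3 by 4.79, Calm4 by 3.94 and Krt10 by 3.89. Krt1, the other suprabasal keratin of the list, differed by 0.13 (SD 1.48, higher on 4 of 8). Krt5, the basal keratin, differed by -4.25 (SD 1.94) and was higher on 0 of 8 plates. Spink5, an inhibitor of kallikreins, was higher by 5.48 (SD 1.83) on 8 of 8 plates. It did not stand for the list of 8 kallikrein inhibitors, of which 2 were higher on every plate and the median difference was 0.08. The healing plates held 27 to 39 Klk7-positive cells each, and the resting plates 5 to 15. On the healing plates alone Cst6 was higher by 5.45 (SD 1.16), Krt79 by 5.85, Spink5 by 3.95 and Krt10 by 2.11 (SD 0.81). The duct list was higher there by 4.27 (SD 0.68) and the suprabasal list by 1.70 (SD 0.39). On the resting plates the lists were higher by 6.91 and 3.83, Cst6 by 10.7 and Krt10 by 5.68.

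In Klk8-positive cells the suprabasal list was higher by 3.39 (SD 1.42) on 8 of 8 plates, with 6 of its 8 genes higher on every plate. The resting plates held only 3 to 7 Klk8-positive cells each, at a share not set apart from background, and the healing plates 35 to 47. On the healing plates alone the list was higher by 2.37 (SD 0.51, n = 4 plates), Krt1 by 6.28 (SD 0.85) and Mt4 by 4.14 (SD 0.65). On the resting plates the list was higher by 4.41 (SD 1.30), Krt1 by 6.45 (SD 3.89) and Mt4 by 4.34 (SD 0.91). Over all plates Krt1 was higher by 6.37 (SD 2.61), Krt10 by 5.27 (SD 2.11), Mt4, a metallothionein from the list of tail scale genes, by 4.24 (SD 0.74) and Tgm3, a cornified envelope transglutaminase, by 1.69 (SD 0.57), each on 8 of 8 plates. The other 3 scale genes were higher on 1 to 4 of 8 plates. The upper follicle and duct list differed by 1.09 (SD 1.84, higher on 6 of 8): Klk11 was higher by 2.16 on 8 of 8 plates, Cst6 by 2.13 and Defb6 by 1.73 on 6 of 8 each, and Krt79 differed by -0.24 (SD 2.49, higher on 4 of 8). On the healing plates alone the duct list differed by -0.22 (SD 1.36), Cst6 by -0.026 and Defb6 by -0.27. Spink5 differed by 1.69 (SD 2.15, higher on 6 of 8). Of the 8 listed inhibitors, 0 were higher on every plate, and the median difference was 0.07. On the healing plates alone Spink5 differed by 0.38 (SD 1.26, higher on 2 of 4) and Krt10 by 3.62 (SD 0.83).

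In Cdsn-positive cells all 6 upper follicle and duct genes were higher on 8 of 8 plates, with Cst6 higher by 7.31 (SD 2.13), Defb6 by 5.57 (SD 2.24) and Krt79 by 4.91 (SD 1.71). Spink5 was higher by 5.47 (SD 1.16) on 8 of 8 plates as well, but 2 of the 8 listed inhibitors were higher on every plate, with a median difference of 0.30. The suprabasal list was higher by 2.16 (SD 1.55) on 7 of 8 plates, with Skint3 higher by 3.77, Sbsn by 3.68 and Krtdap by 2.77 on 8 of 8, Krt10 by 3.27 on 7 of 8, and Krt1 higher on 2 of 8. The list difference was -0.25 to 2.06 on healing plates, with 8 to 17 Cdsn-positive cells each. On resting plates, with 4 to 10 such cells each, it was 1.98 to 4.20. Krt10 differed by 1.25 (SD 1.41) on healing and 5.28 (SD 1.40) on resting plates, and Cst6 by 5.57 and 9.05. In Klk10-positive cells the duct list was higher by 3.43 (SD 2.78) on 8 of 8 plates, with Gata6, Krt17 and Klk11 each higher on 8 of 8, Cst6 on 7 of 8 and Krt79 on 6 of 8. The duct difference was 5.38 to 6.47 on the resting plates, which held 4 to 9 Klk10-positive cells each, and 0.0275 to 1.93 on the healing plates. The list of 6 wound-activated genes differed the other way round, by -0.33 to 0.28 on resting and 2.52 to 5.86 on healing plates. On healing plates that list differed by 0.51 to 1.72 in Klk8-positive cells. The ranges there were -2.82 to 0.42 for Klk7 and -2.49 to 1.97 for Cdsn. In the cells with at least 10 counts of Krt6a, a keratin induced by wounding, Klk10 was found in 26.7% (67 of 251), against 7.87% (35 of 445) in the other cells, with median depths of 178078 and 105384 counts. The other members were also more frequent there: Cdsn in 15.9% against 8.09%, Klk8 in 31.5% against 23.4% and Klk7 in 27.9% against 22.2%. Time points were pooled here, although both Klk10 and Krt6a differed between them. Defining granular layer genes were scarce in the sort, with Lor (loricrin) in 3.30% of all cells and Flg (filaggrin) in 4.17%. Either of these was found in 15 of the 76 Cdsn-positive cells (19.7%), 13 of 102 Klk10-positive (12.7%), 18 of 169 Klk7-positive (10.7%) and 15 of 183 Klk8-positive cells (8.20%), against 5.16%, 5.72%, 5.50% and 6.24% of the cells negative for the same genes. The list of 11 granular genes was higher in positive than in negative cells on 8 of 8 plates for each member, by 1.18 (SD 0.61) for Cdsn, 0.998 (SD 0.82) for Klk7, 0.90 (SD 0.86) for Klk10 and 0.60 (SD 0.29) for Klk8. Of its 11 genes, 4 were higher on every plate for Klk7, 3 for Cdsn and 1 each for Klk8 and Klk10. Sbsn is also in the suprabasal list, and Tgm3 differed by -0.51 for Klk7 and -0.41 for Cdsn.

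**Figure D4:**
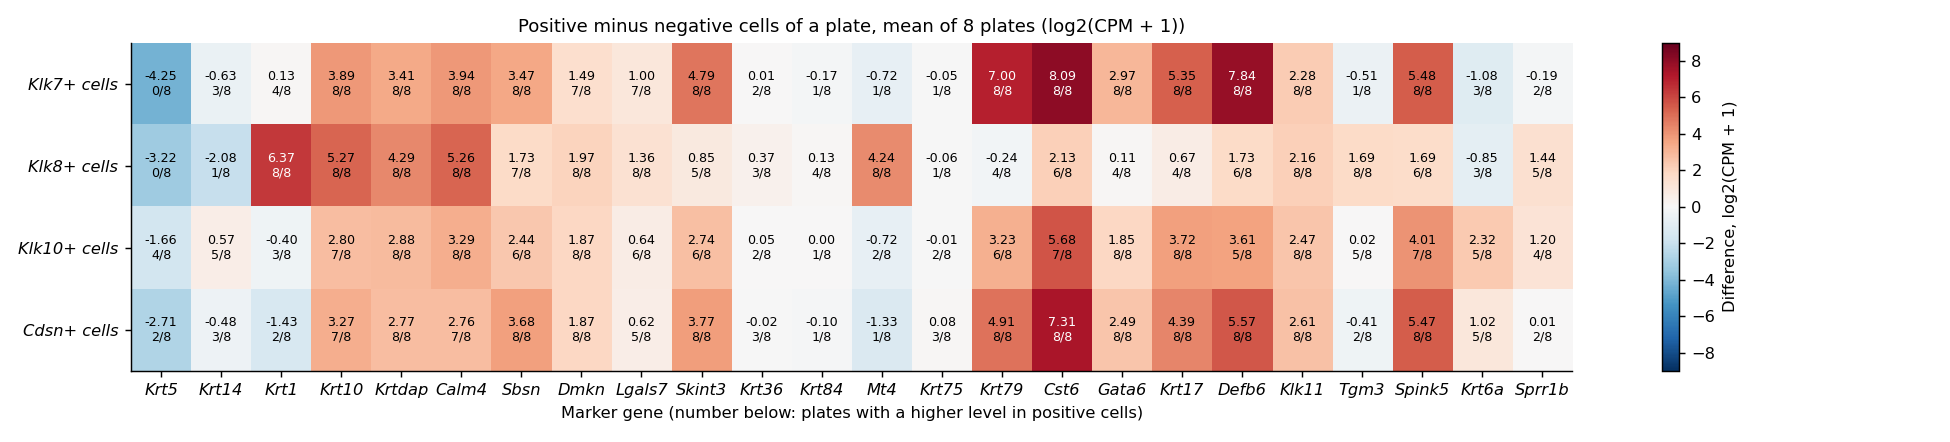
Difference in log2(CPM + 1) between cells positive and negative for each gene of the rows, averaged over 8 plates, for genes in columns (basal keratins, then the suprabasal, scale and duct lists, then 4 others); colour and upper number give the difference, lower number the plates with a higher level. Krt79, Cst6 and Defb6 are highest for Klk7 and Cdsn, and Krt1, Mt4 and Tgm3 for Klk8, while Krt10, Krtdap and Calm4 are above 0 in every row.

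The genes most like each member were ranked over single cells. Likeness was the Pearson correlation of log2(CPM + 1), centred on the plate mean, over 696 cells, which share library and depth within a plate, and 9958 other genes found in at least 10% of cells, once predicted gene models (names starting in Gm or ending in Rik) had been left out. For Klk7 the 5 closest were Sprr1a, a cornified envelope precursor (0.73), Teddm3 (0.63), Gsdma, a gasdermin (0.63), Rarres1 (0.62) and Cldn4, a tight junction claudin (0.59). For Klk8 they were Slurp2, a secreted Ly6 family protein (0.59), Krt1 (0.54), Serpinb12, a clade B serpin (0.52), Calm5, a calmodulin-like protein (0.51) and Oas1f (0.51). For Klk10 they were Cdsn (0.56), Slc46a2 (0.49), Tgm1, the membrane transglutaminase of the cornified envelope (0.44), Calhm5 (0.43) and Gsdma (0.43). On single plates the Klk10 values ran from 0.009 to 0.90 for Cdsn, 0.07 to 0.84 for Slc46a2 and -0.03 to 0.84 for Tgm1. The 5 genes closest to Klk7 were at 0.457 or more on every plate. For Cdsn the 5 closest were Slc46a2 (0.70), Cldn4 (0.63), Gsdma (0.59), Klk10 (0.56) and Calhm5 (0.56). Plate values for Cdsn ran from 0.045 to 0.77 for Cldn4, 0.18 to 0.70 for Gsdma and 0.49 to 0.74 for Slc46a2. Those for Klk8 ran from 0.075 to 0.77 for Krt1, 0.16 to 0.66 for Oas1f and 0.47 to 0.74 for Slurp2. Klk7 stood at place 9 for Cdsn (0.53), and Klk8 at place 2575 (0.03), and by Spearman correlation the places were 121 for Klk7, 3534 for Klk8 and 18 for Klk10. By Spearman correlation the top 5 kept 3 of 5 genes for Klk7, 4 for Klk8, 1 for Klk10 and 2 for Cdsn.

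The wider family was read from a fixed list of 13 kallikreins, of which 10 are in the table and 9 were tested. In healing against resting skin, 2 of the 9 were called higher, Klk8 and Klk13, where 1.03% of all genes tested were called higher and 0.765% lower, and the median log2 fold change was 1.68 against -0.00 for all genes tested. Klk13 was listed at 0.571, 0, 0.216 and 0 CPM on the resting plates and at 86.3, 37.8, 9.66 and 12.7 CPM on the healing plates (edgeR adjusted p = 0.00893). Klk13 was also the 1 family gene called at 1w pw1 against 0w (edgeR adjusted p = 0.0453), where 0.404% of all genes were called higher.

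Klk11, another kallikrein of keratinocytes, was found in 6.19% ± 4.10 of cells in unwounded skin and 13.4% ± 4.33 in the healed skin of 8w pw1 (SD, n = 2 plates). Its share was 47.0% ± 0.251 at 1w pw1 and 31.6% ± 0.334 at 1w pw2. Its log2 fold change of 2.34 (SE 0.58, edgeR adjusted p = 0.0874) did not pass. Klk5, the trypsin-like kallikrein that activates Klk7, was found in 10.6% ± 1.04, 39.3% ± 14.3, 16.9% ± 4.39 and 34.1% ± 9.35 in the order of the time points, with a log2 fold change of 1.40 (SE 0.44, edgeR adjusted p = 0.157). Klk14 was found in 9 of 696 cells, Klk12 in 13, Klk9 in 30 and Klk6 in 54.

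**Figure D5:**
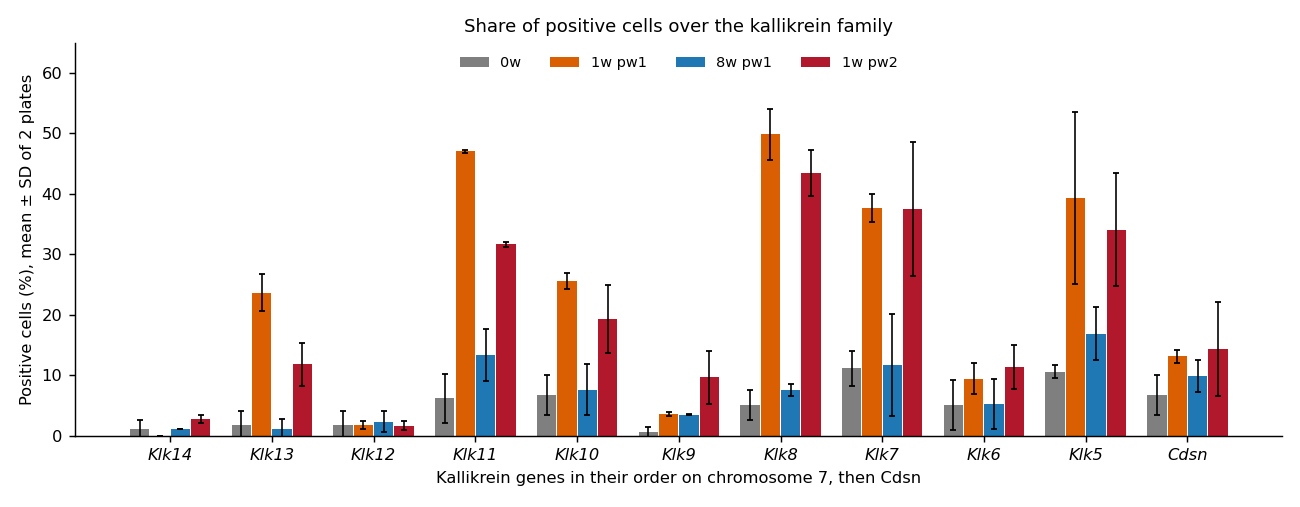
Percentage of positive cells for the 10 kallikrein genes in chromosome order and for Cdsn; bars give the mean and SD of 2 plates for each time point. Every gene shown except Klk12 and Klk14 has higher means at 1w pw1 and 1w pw2 than at 0w and 8w pw1.

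Of the 8 listed kallikrein inhibitors 7 were tested and 0 called in any contrast, where at most 1.8% of all genes were called, so 0 of 7 is near the background. At an unadjusted p under 0.05, 2 of the 7 and 2060 of the 13853 genes tested would pass in healing against resting skin. The 7 had a median log2 fold change of -0.02 in healing against resting skin. Spink5 was at 447 to 875 CPM on resting and 450 to 1190 CPM on healing plates (log2 fold change 0.09, SE 0.36). The same holds for the 6 upstream proteases, of which 0 were called (median log2 fold change 0.51). In healing against resting skin 2 of the 6 had an unadjusted p under 0.05, beside the same 2060 of 13853 genes. The nearest to a call was Tmprss4, a membrane serine protease, at 1.85 (SE 0.47, edgeR adjusted p = 0.0893). F2rl1, the receptor PAR2 that kallikreins can cleave, stood at -0.31 (SE 0.70). Among the 9 genes of the corneodesmosome list, Cdsn included, Dsc1 (desmocollin 1) alone was called, from 54.9 to 130 CPM on resting to 169 to 416 CPM on healing plates (log2 fold change 1.92, SE 0.38, edgeR adjusted p = 0.0347). All 9 had a positive log2 fold change with a median of 0.97, and the substrate Cdsn was the 1 with the second largest value and an SE of 0.93.

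Apart from Pecam1, the 13 measured markers of other cell types were each found in 0.575% (Kdr, an endothelial receptor) to 8.91% of cells (Lum, a fibroblast proteoglycan, and Dct, a melanocyte enzyme), with up to 18.4% on a single plate for Lum. Ptprc, the leukocyte marker, was found in 3.88%. The summed levels on resting and healing plates were 0.214 to 7.24 and 0.159 to 31.8 CPM for the immune list (3 of 6 genes in the table), 3.49 to 29.5 and 0.506 to 16.1 CPM for the fibroblast list (5 of 6), 1.61 to 7.65 and 1.69 to 3.84 CPM for the melanocyte list (2 of 4), and at most 3.01 CPM for Merkel cells (Krt8, 1 of 4). The exception was the endothelial list (3 of 4), at 549 to 1813 and 95.1 to 927 CPM, nearly all of it Pecam1, which was found in 98.7% of cells. The part of these levels in the values above was not tested.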

How the data were processed

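Single tdTomato+ cells were sorted into 96-well plates and sequenced by a modified Smart-seq2 protocol (full-length, no molecular identifiers, no strand). Per the labels and the study's methods, the authors quantified reads with Salmon 0.13.1 on GRCm38 (Ensembl release 101) and deposited expected counts, which are not normalized; 96.6% of the values are whole. Their filter asked for 1000 or more genes a cell and no more than 50% mitochondrial reads, which each of the 696 deposited cells meets; no 2 cells have identical values, and no doublet caller was run on these sorted wells. For each plate, counts were added up over its cells, rounded to whole numbers and tested with edgeR 4.0.16 (R 4.3.3; TMM, filterByExpr, quasi-likelihood, 8 plates and 4 time points in 1 fit, Benjamini-Hochberg over 13853 genes), after a test on simulated data. Calls need an adjusted p below 0.05 and a fold above 2. The SE beside an edgeR log2 fold change is its absolute value divided by the square root of the quasi-likelihood F statistic. A cell is positive with a count of at least 1; shares were compared by exact two-sided permutation over plates (scipy 1.17.1), with p-values adjusted over all 15652 genes in place of the adjustment over the members that had been planned. log2 values carry a pseudocount of 1 CPM. Alternatives were DESeq2 1.42.0, no filter, library totals, cells scaled equally, the deepest cell of each plate left out, the replicate number as a block, each plate left out, a count of at least 10, thinning to 50000 counts and Spearman correlation; the Krt10 subset and the unthinned deeper cells were added after seeing the data. Named genes are the members, the listed kallikreins, inhibitors, upstream proteases, receptor and corneodesmosome genes, granular genes where a result turns on them, and the 5 genes most like each member by Pearson correlation; markers and other genes were named after their values were seen. The members and lists were chosen with earlier results of these data known. Gene positions come from GENCODE M21 and promoter sequences from RefSeq, both on GRCm38; 4 of 4 members matched. Same-numbered plates deviated together from their time point means (correlation 0.121 to 0.213 over the 6 pairs of time points), so the fit with the replicate number as a block is given beside each result whose call it changes; the labels do not say what plates of a number share. The study used Seurat on single cells; plates are compared here because cells are not replicates.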

Additional observations from a re-analysis of the deposited data

How the results depend on the processing

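With the replicate number as a block, 2 members passed in healing against resting skin (Klk7 at 1.55, edgeR adjusted p = 0.0471, beside Klk8 at 3.73, edgeR adjusted p = 0.00738), 1 at 1w pw1 against 0w and 1 in the test of any difference (Klk8, adjusted p = 0.0450); Klk10 at 1w pw2 against 8w pw1 turned to 1.25, Klk7 at 1w pw2 against 1w pw1 to 0.026 and Klk8 between the healings to -0.10. It changed no other call of a member, and called 96 genes in place of 37 at 1w pw2 against 0w and 8 in place of 1 at 1w pw2 against 8w pw1. DESeq2 called 3 members at 1w pw1 against 0w (732 of 15651 genes), 1 at 1w pw2 against 0w (693 genes), 1 at 1w pw2 against 8w pw1 (291 genes), 1 for any difference (921 genes) and 2 in healing against resting skin (1032 genes), Klk7 among them at 1.51 (adjusted p = 0.0101; 0.0101 to 0.294 over its alternatives). Without a filter 268 were called, and library totals, also with 268, moved the median gene by -0.18 and the calls from 143 higher and 106 lower to 116 and 152. The cause of these changes was not tested.

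With 1 plate left out, 0 to 1 members were called in healing against resting skin and 0 to 1 for any difference. The log2 fold changes then ran from 3.20 to 4.73 for Klk8, 1.23 to 1.73 for Klk7, 0.52 to 3.15 for Klk10 and 0.85 to 3.31 for Cdsn. Directions also turned: Cdsn ran from -0.38 to 3.59 (1w pw2 against 8w pw1), -0.59 to 6.38 (8w pw1 against 0w) and -5.56 to 1.41 (between the healings); Klk10 from -1.02 to 1.999 (1w pw2 against 8w pw1), -1.33 to 3.97 (8w pw1 against 0w) and -0.28 to 3.78 (1w pw2 against 0w); Klk7 from -0.67 to 0.36 and Klk8 from -0.50 to 0.14 (1w pw2 against 1w pw1); Klk8 from -1.33 to 1.69 (8w pw1 against 0w) and -1.87 to 1.14 (between the healings). The difference in Klk10 shares ran from 14.0 to 17.7 points, with an exact permutation p of 0.0286 to 0.0571 (0.0571 to 0.114 over the 4 time points).

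With every cell scaled equally, Cdsn turned to -0.084 (1w pw2 against 8w pw1), Klk10 to -1.15 (1w pw2 against 0w) and -0.27 (8w pw1 against 0w), and Klk7 to -0.032 (8w pw1 against 0w). Without the deepest cell Klk10 turned to 0.12 (1w pw2 against 8w pw1). With library totals Klk7 and Klk8 turned to 0.26 and 0.18 (1w pw2 against 1w pw1). None of these was called. Among cells with at least 10 Krt10 counts the shares of Klk7, Klk10 and Cdsn differed by 18.2, 8.94 and -1.57 points. Depth limits detection in single cells, of which 136 of 696 had fewer than 50000 counts.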
